A study of Mus musculus with 4 samples.

Results

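The 10 genes described here make, cut, carry and load the peptides that cells show on MHC class I molecules: H2-K1 (ENSMUSG00000061232), H2-D1 (ENSMUSG00000073411), B2m (ENSMUSG00000060802), Tap1 (ENSMUSG00000037321), Tap2 (ENSMUSG00000024339), Tapbp (ENSMUSG00000024308), Erap1 (ENSMUSG00000021583), Psmb8 (ENSMUSG00000024338), Psmb9 (ENSMUSG00000096727) and Nlrc5 (ENSMUSG00000074151). They were chosen by Ensembl ID from a fixed list of members, 10 of the 53465 gene IDs in the count table. The rule for the choice does not use their measured values, but it was set with earlier results of these data known. RNA was sequenced from Hepa 1-6 cells, a mouse hepatocellular carcinoma line grown in culture. The 4 groups, of 1 library each, were the YTHDF1 precipitates of Usp5 guide cells and of control guide cells, and the inputs of both. The labels call the Usp5 guide cells a knockdown and the control guide cells wild type. They name no clone, no further treatment and no culture replicates. The precipitate (RIP) holds RNA pulled down with a YTHDF1 antibody, and the input is 10% of the lysate set aside before precipitation. YTHDF1 is a reader of the m6A mark that promotes the translation of marked mRNAs. USP5 is a deubiquitinating enzyme, and the series title ties it to YTHDF1 and to immune surveillance of cancer.

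MHC class I molecules let cytotoxic T cells inspect the proteins a cell is making. Proteasomes, in inflamed tissue with the immunoproteasome subunits Psmb8 and Psmb9, cut proteins into peptides. The Tap1 and Tap2 transporter moves the peptides into the endoplasmic reticulum, Erap1 trims them, and tapasin (Tapbp) helps load them onto a heavy chain (H2-K1 or H2-D1) paired with the light chain B2m. Nlrc5 is a transcriptional activator of several of these genes, and interferon gamma raises most of the genes named here. Hepatocytes at rest express them at low levels, and tumour cells with less of them are less visible to T cells.

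Of the 10 members, 7 lie on chromosome 17 in the mouse MHC region or beside it (RefSeq, assembly GRCm38.p6, the same genome as the mm10 build that the submitters name). H2-K1 lies at chr17:33996012-34000619 and H2-D1 at chr17:35263094-35267497. Psmb9 (chr17:34182030-34187330), Tap1 (chr17:34187556-34197225), Psmb8 (chr17:34198195-34201454) and Tap2 (chr17:34204479-34216321) stand side by side within 34292 bases, and Tapbp lies at chr17:33919478-33929290. B2m is at chr2:122147687-122153082, Nlrc5 at chr8:94434335-94527272 and Erap1 at chr13:74639573-74693205. All 10 are annotated as protein-coding. The counts are per gene, so exons, introns and UTRs are not separated.

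Promoter stretches of both heavy chains and of B2m are shown because the activator Nlrc5 is itself a member. RefSeq windows of 250 bases before the first start listed were at hand for 8 of the 10 members. For H2-K1 that start lies inside the gene span given above. The H2-K1 stretch runs from 111 to 12 bases before it and lies inside the span too. The H2-D1 and B2m stretches lie before their gene spans. Capitals mark the kappaB consensus, TTTCNNTT (the core of an interferon response element) and the pair TGACG and ATTGG with 20 bases between them (the X2 and Y boxes of MHC promoters), each searched on both strands. The stretches lie at chr17:34000359-34000458 (minus strand), chr17:35262923-35263022 (plus strand) and chr2:122147550-122147638 (plus strand), and are written 5′ to 3′ on the gene's strand.
H2-K1: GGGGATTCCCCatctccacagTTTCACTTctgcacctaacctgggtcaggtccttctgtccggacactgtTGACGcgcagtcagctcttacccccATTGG
H2-D1: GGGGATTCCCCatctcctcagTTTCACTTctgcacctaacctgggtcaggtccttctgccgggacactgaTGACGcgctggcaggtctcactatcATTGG
B2m: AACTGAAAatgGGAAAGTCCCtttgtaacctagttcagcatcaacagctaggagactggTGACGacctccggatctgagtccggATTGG
The H2-K1 and H2-D1 stretches were identical at 89 of 100 aligned positions. The whole windows of 250 bases were identical at 174 of 310 aligned positions, gaps included. The kappaB match begins 111 bases before the start used in H2-K1 and 171 bases before it in H2-D1. The windows are thus shifted against each other, and the gaps from this shift count among the 310. The 2 shares are therefore not comparable, and the second does not measure divergence outside the stretch. The spaced pair was found in these 3 of the 8 member windows and in 0.0913% of all 32851 promoter windows of the same length. The kappaB consensus was found in the same 3 members (in overlapping copies in H2-K1 and H2-D1, on the minus strand in B2m) and in 7.25% of all windows. TTTCNNTT, found in these 3 members too (in B2m on the minus strand), was in 21.3% of all windows. The motifs, the spacing of 20 bases included, were chosen after the sequences were seen, so the matches in these 3 members are no test of enrichment. A match describes the letters and not a site.

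Psmb9 and Tap1 are transcribed away from each other with 225 bases between their starts. The stretch between them is shown because both genes border it. It lies at chr17:34187331-34187555 and is written on the plus strand, with Psmb9 to its left and Tap1 to its right. Capitals mark TGACG and ATTGG (here on the minus strand, as ccaat), which were found singly in 17.8% and 33.8% of all windows.
Psmb9-Tap1: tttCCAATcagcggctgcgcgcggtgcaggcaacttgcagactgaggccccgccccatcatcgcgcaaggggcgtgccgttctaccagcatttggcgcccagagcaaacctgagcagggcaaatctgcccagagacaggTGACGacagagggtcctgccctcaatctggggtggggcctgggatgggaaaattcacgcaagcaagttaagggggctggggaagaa

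The libraries held 29898171 (Usp5 RIP), 33941019 (control RIP), 31751069 (Usp5 input) and 30804293 (control input) counts. Levels are given as normalised CPM, counts scaled to library size with TMM factors. Gene lengths were not used here, so levels are compared between libraries and not between genes. With 1 library a group, Usp5 against control could not be checked against replicates and carries no p. A gene is called higher or lower when its ratio is at least 2-fold and its 95% counting interval excludes no difference. Counting intervals cover counting error only, and without molecular identifiers PCR copies cannot be counted as separate molecules. The scatter between libraries was larger: over genes at a mean log2 CPM of 0 to 6, it was 57.7 times the binomial variance between the inputs and 18.4 times between the RIP libraries. A widened interval, whose centre can differ from the plain ratio at low counts and which was computed after dividing the counts by these values, is therefore given for the results that matter. The scatter was measured on the same libraries and includes any change with the guide. B2m and H2-D1, at mean log2 CPM 6.25 and 7.30, lie above the range used for it, so their widened intervals may be too narrow. The guide and cell type labels were not checked, because Usp5, Ythdf1 and the markers of hepatocytes, leukocytes and other cells could not be looked up by ID and were not analysed here.

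H2-K1, the first of the heavy chains, was close to unread. It had 0 reads in the Usp5 RIP, 0 in the control RIP, 0 in the Usp5 input and 4 in the control input. A count of 0 allows up to 3 reads, or 0.0947, 0.0841 and 0.0975 CPM in the first 3 libraries, and the 4 reads correspond to 0.140 CPM (exact Poisson interval 0.0382 to 0.359). No ratio is given for it, since all 4 libraries are near the limit of detection. The handling of reads that match several class I genes is not given in the sources used here, and H2-K1 is among the older names of 8 other RefSeq genes, H2-D1 included. Absence of H2-K1 RNA cannot be told apart from loss or reassignment of its reads.

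H2-D1, the other classical heavy chain, was read deeply in every library. It had 4576 reads in the Usp5 RIP, 6598 in the control RIP, 4779 in the Usp5 input and 4254 in the control input, or 144, 185, 155 and 149 CPM in that order. The control RIP stood above the other libraries, which lay close together. The same doubt over reads shared between class I genes holds for H2-D1.

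B2m, the light chain that every class I molecule needs at the cell surface, had 1492 reads in the Usp5 RIP, 1659 in the control RIP, 3419 in the Usp5 input and 3890 in the control input. Its levels were 47.1, 46.5, 111 and 136 CPM in the same order. Both RIP libraries lay well below both inputs.

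Tap1, the transporter's first chain, had 1006 reads in the Usp5 RIP, 913 in the control RIP, 470 in the Usp5 input and 681 in the control input (31.7, 25.6, 15.3 and 23.9 CPM). The Usp5 input was the low library. Tap2, its partner chain, was read far less often, with 175 reads in the Usp5 RIP, 155 in the control RIP, 43 in the Usp5 input and 19 in the control input (5.52, 4.34, 1.40 and 0.666 CPM). Both RIP libraries lay above both inputs.

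Tapbp, which holds the empty heavy chain to the transporter, had 590 reads in the Usp5 RIP, 734 in the control RIP, 547 in the Usp5 input and 460 in the control input (18.6, 20.6, 17.8 and 16.1 CPM). Its level was nearly even over the libraries. Erap1, the aminopeptidase that trims peptides in the endoplasmic reticulum, had 1019 reads in the Usp5 RIP, 1119 in the control RIP, 1293 in the Usp5 input and 2161 in the control input (32.2, 31.4, 42.0 and 75.7 CPM). Here the control input stood apart on the high side, and the RIP libraries were alike.

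Psmb8, an immunoproteasome subunit, had 137 reads in the Usp5 RIP, 359 in the control RIP, 99 in the Usp5 input and 208 in the control input (4.32, 10.1, 3.22 and 7.29 CPM). Both Usp5 libraries lay below both control libraries. Psmb9, another immunoproteasome subunit, had 31 reads in the Usp5 RIP, 90 in the control RIP, 33 in the Usp5 input and 13 in the control input (0.978, 2.52, 1.07 and 0.456 CPM). These counts are low, and the control libraries held both its highest and its lowest level.

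Nlrc5, the activator, had 1945 reads in the Usp5 RIP, 2285 in the control RIP, 831 in the Usp5 input and 978 in the control input (61.4, 64.1, 27.0 and 34.3 CPM). Both RIP libraries lay above both inputs by a similar factor.

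**Figure D1:**
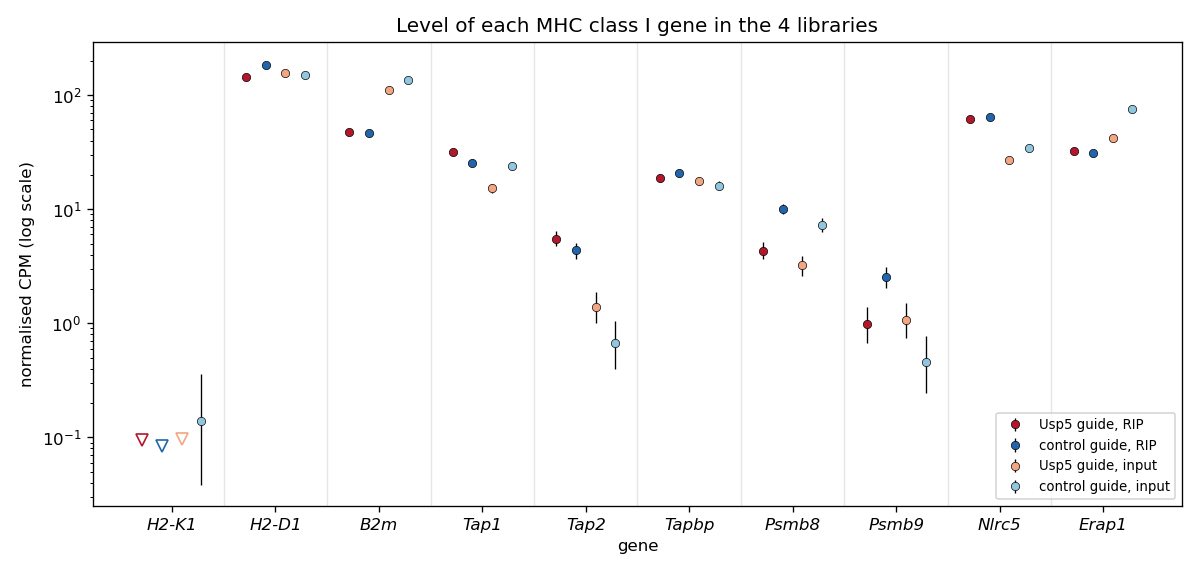
Normalised CPM (log axis) of the 10 genes in the Usp5 RIP, control RIP, Usp5 input and control input libraries, 1 point a library, with exact Poisson 95% intervals (counting error only); open triangles mark libraries with 0 reads at the level of 3 reads. The RIP and input points separate, with intervals that do not overlap, for B2m, Nlrc5, Tap2 and Erap1. The Usp5 and control points separate for Psmb8, and H2-K1 is at or near 0 throughout. Heights are not comparable between genes, since length is not taken into account.

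The first comparison asked which of these mRNAs were recovered with the YTHDF1 antibody. Genes averaging 1 CPM or more were compared, 12920 in all, among them 9 members (H2-K1 fell short). Of the 9, Psmb9 passed only through the control RIP: its mean CPM by library totals was 1.29 over the 4 libraries and 0.833 without that one. Tap2 passed only with RIP libraries included, since its inputs alone averaged 0.986 CPM. Their high values there are partly built into their entry, so their folds are given as a description and support nothing. B2m mRNA was under-represented in the precipitate of both lines and Nlrc5 mRNA was over-represented in both. B2m was 2.36-fold lower in the RIP than in the input of Usp5 guide cells (log2 ratio -1.24, counting interval -1.33 to -1.15, widened interval -1.72 to -0.76) and 2.93-fold lower in control guide cells (-1.55, -1.64 to -1.47, widened -2.01 to -1.10). Nlrc5 was 2.27-fold higher in the RIP than in the input of Usp5 guide cells (1.18, 1.07 to 1.30, widened 0.36 to 1.92) and 1.87-fold higher in control guide cells (0.90, 0.79 to 1.01, widened 0.14 to 1.59), where it did not reach 2-fold. Both genes overlap others in RefSeq (B2m overlaps Patl2, and Nlrc5 overlaps 3 genes), and without stated strand handling the reads of the overlap cannot be told apart.

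The fold was tested over both lines with edgeR's quasi-likelihood test, RIP against input with the line as a block (2 libraries against 2, 1 residual degree of freedom). With so few libraries, the spread behind each p is estimated largely from all genes together. Each line gave 1 lysate, so the p does not measure spread between replicate cultures. B2m fell in the RIP (log2 ratio -1.40, SE 0.19, adjusted p = 0.00097, lower in 2 of 2 lines) and Nlrc5 rose (1.04, SE 0.24, adjusted p = 0.0111, higher in 2 of 2 lines), with p adjusted over all 12920 genes. The other 7 members did not pass. Erap1 came nearest, with a log2 ratio of -0.83 (SE 0.27, edgeR adjusted p = 0.0553, lower in 2 of 2 lines). Tap2 had the widest difference of the members (2.34, SE 1.28, edgeR adjusted p = 0.240). For H2-D1 the ratio was 0.10 (SE 0.16, edgeR adjusted p = 0.721). Over all genes the same test called 10.2% higher and 11.3% lower in the RIP (21.5% together), so 2 of 9 members is close to the share of all genes. Without a control precipitate, binding to the beads alone cannot be told apart from binding to YTHDF1.

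Among the other members, Erap1 was 2.41-fold lower in the RIP of control guide cells (log2 ratio -1.27, counting interval -1.38 to -1.17, widened -1.86 to -0.70), while in Usp5 guide cells its ratio was -0.39 (-0.51 to -0.27, widened -1.11 to 0.30). Its RIP levels were alike in both lines, so this gap lies in the inputs, as described below. Erap1 overlaps Cast in RefSeq, with the same limit on its reads. Tap2 was 3.92-fold higher in the RIP of Usp5 guide cells (1.97, 1.49 to 2.50) and 6.40-fold higher in control guide cells (2.68, 2.01 to 3.48). These rest on 43 and 19 input reads, and both widened intervals include 0 (-1.37 to 4.00 and -1.79 to 4.70).

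Tap1, which shares the transporter with Tap2, was 2.08-fold higher in the RIP of Usp5 guide cells (1.05, 0.90 to 1.22, widened -0.05 to 2.02) and near even in control guide cells (0.10, -0.04 to 0.25). Psmb9, on the other side of the short stretch before Tap1, was near even in Usp5 guide cells (-0.13, -0.89 to 0.62) and 5.39-fold higher in the RIP of control guide cells (2.43, 1.62 to 3.43, widened -2.61 to 4.46). The pair thus differed in opposite lines, on 13 input reads for Psmb9 in control guide cells and with Psmb9 compared only because of its control RIP level. Psmb8 had ratios of 0.42 in Usp5 guide cells and 0.46 in control guide cells, Tapbp 0.07 and 0.35, and H2-D1 -0.11 and 0.31, in each case under 2-fold.

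By the size rule, 3 members (Nlrc5, Tap1, Tap2) were higher and 1 (B2m) was lower in the RIP of Usp5 guide cells, beside 15.9% and 13.7% of all genes (29.6% together). In control guide cells 2 members (Tap2, Psmb9) were higher and 2 (B2m, Erap1) lower, beside 18.4% and 15.0% of all genes (33.4% together). Without Tap2 and Psmb9, which entered through their RIP levels, 2 members were higher in Usp5 guide cells and 0 in control guide cells. With widened intervals there was 1 higher (Nlrc5) and 1 lower (B2m) in Usp5 guide cells, beside 4.06% and 7.69% of all genes (11.7% together), and 0 higher and 2 lower (B2m, Erap1) in control guide cells, beside 5.26% and 9.85% (15.1% together). Widened ratios of RIP over input lean low at low counts, which favours lower calls over higher ones. The members' median log2 ratio was 0.07 in Usp5 guide cells and 0.35 in control guide cells, against 0.02 and 0.03 over all genes, well inside the quartiles of all genes (-0.59 to 0.66 and -0.65 to 0.75). Members lay on both sides of 0, 5 above and 4 below in Usp5 guide cells and 7 above and 2 below in control guide cells.

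Genes of like abundance give a closer yardstick, since scatter shrinks with depth. Within the class of genes with mean log2 CPM from 6 to 7 (1545 genes), B2m stood at percentile 3.50 of log2 RIP over input in Usp5 guide cells and at 2.46 in control guide cells. Nlrc5 stood at percentiles 95.3 and 85.3 of the 1859 genes from 5 to 6, and Erap1 at 30.6 and 5.43 of the same class. H2-D1 lay in the middle of its class of 986 genes, at percentiles 49.5 and 70.2.

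**Figure D2:**
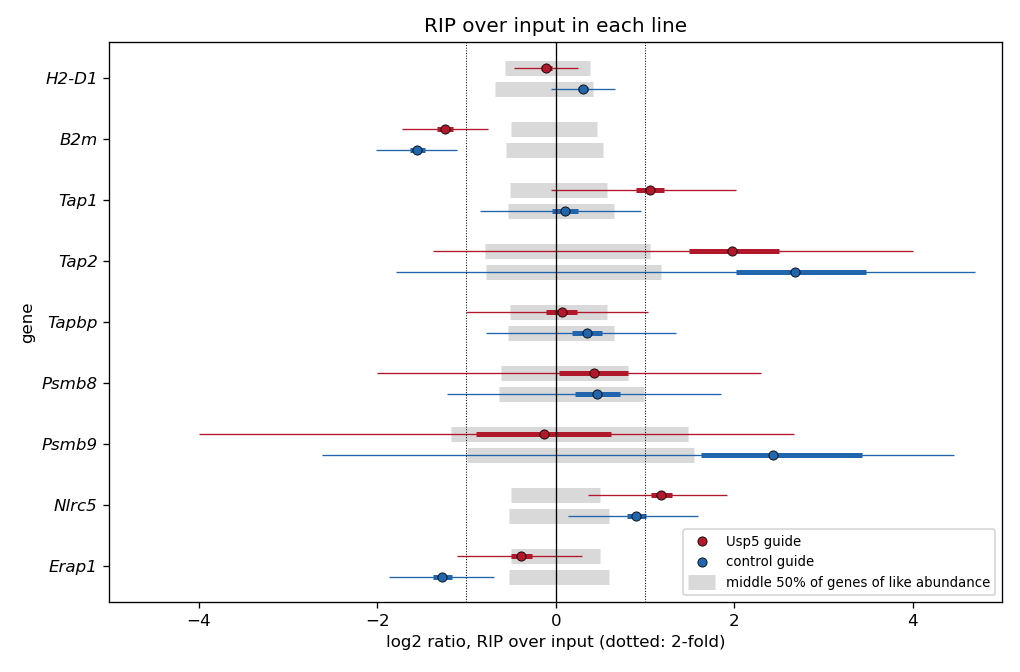
Log2 ratio of RIP over input for the 9 genes compared, in Usp5 guide cells (upper point of each pair) and control guide cells (lower point); thick lines are 95% counting intervals, thin lines intervals widened by the scatter between libraries, and grey bars the quartiles of genes in the same 1-unit class of mean log2 CPM. B2m lies left of -1 in both lines and Nlrc5 right of 0 with both kinds of interval. The thin lines of H2-D1, Tap1, Tap2, Tapbp, Psmb8 and Psmb9 span 0 in both lines, and that of Erap1 does in Usp5 guide cells.

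The next comparison asked whether the levels of these mRNAs differed between cells with the Usp5 guide and with the control guide, in the inputs. Most members were within 2-fold. Psmb8 was 2.26-fold lower in the Usp5 input (log2 ratio -1.18, counting interval -1.54 to -0.83), while Tap2 and Psmb9 were 2.07-fold and 2.31-fold higher (1.05, 0.26 to 1.93, and 1.21, 0.27 to 2.29). The 3 genes past the rule are those with the fewest reads among the 9, and their widened intervals include 0: -3.36 to 1.36 for Psmb8, -3.53 to 4.49 for Tap2 and -3.84 to 4.75 for Psmb9. The size rule called 12.4% of all genes higher and 12.1% lower in the Usp5 input (24.5% together), and the share called together in the abundance classes of these 3 genes was 39.4% for Psmb8, 51.9% for Tap2 and 62.3% for Psmb9. With widened intervals 0 members were higher and 0 lower, beside 0.751% and 0.944% of all genes (1.7% together). In bulk RNA, fewer cells that express a gene and less RNA per cell cannot be told apart.

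Erap1 was 1.80-fold lower in the Usp5 input (-0.85, counting interval -0.95 to -0.75), and its widened interval of -1.59 to -0.09 excludes 0, although it does not reach 2-fold. It stood at percentile 3.71 of its class, whose log2 ratios had an SD of 0.48. The widened interval applies the same scatter value at every depth, so its exclusion of 0 is not firm. Tap1 was 1.56-fold lower (-0.64, -0.82 to -0.47, widened -1.87 to 0.64), Nlrc5 1.27-fold lower (-0.34, -0.48 to -0.21, widened -1.33 to 0.66) and B2m 1.23-fold lower (-0.29, -0.36 to -0.23, widened -0.79 to 0.21). Their widened intervals include 0. H2-D1 and Tapbp differed by 0.06 (-0.00 to 0.12) and 0.14 (-0.04 to 0.32), with counting intervals that include 0. The median of the 9 members was -0.29, against -0.01 over all genes (quartiles -0.44 and 0.44).

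The RIP libraries were then compared with each other, without dividing by input. Here too Psmb8 was lower with the Usp5 guide, 2.32-fold (-1.22, counting interval -1.51 to -0.93, widened -2.35 to 0.02), and Psmb9 was 2.55-fold lower (-1.35, -2.01 to -0.76, widened -3.40 to 1.13), set against the control RIP through which it entered the comparison. These 2 members lower and 0 higher stand beside 4.64% and 4.55% of all genes called in the RIP libraries by the size rule (9.19% together), and beside 10.8% and 32.0% called together in the abundance classes of Psmb8 and Psmb9. Psmb8 stood at percentile 3.05 of its class in the RIP libraries and at 15.6 in the inputs. Its ratio was thus of like size in both pairs of libraries, which come from the same lysates and are not independent cultures. Psmb9 was lower in the RIP libraries but higher in the inputs. With widened intervals 0 members were higher and 0 lower between the RIP libraries, beside 0.588% and 0.565% of all genes (1.15% together).

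H2-D1 was 1.28-fold lower in the Usp5 RIP than in the control RIP (-0.36, counting interval -0.41 to -0.30), a small difference whose widened interval of -0.59 to -0.12 excludes 0. It stood at percentile 3.55 of its class, whose log2 ratios had an SD of 0.20. The size rule called 0% of genes in this class, and H2-D1 was not called either. H2-D1 lies above the range used for the scatter, so its widened interval may be too narrow. Tap1 was 1.24-fold higher (0.31, 0.18 to 0.44, widened -0.24 to 0.86) and Tap2 1.27-fold higher (0.34, 0.03 to 0.67, widened -0.96 to 1.64). B2m, Nlrc5, Erap1 and Tapbp had ratios of 0.02, -0.06, 0.04 and -0.14, each with a counting interval that includes 0. For B2m it ran from -0.08 to 0.12 (widened -0.41 to 0.45) and for Nlrc5 from -0.15 to 0.03 (widened -0.43 to 0.31).

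Between the pairs, 3 of the 9 members (Tap2, Psmb8 and Nlrc5) had ratios of the same sign in inputs and RIP libraries, beside 52.2% of all genes. In the inputs 4 members lay above 0 and 5 below, and in the RIP libraries likewise 4 and 5. The median over the 9 members was -0.06 in the RIP libraries, against -0.01 over all genes (quartiles -0.25 and 0.23).

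**Figure D3:**
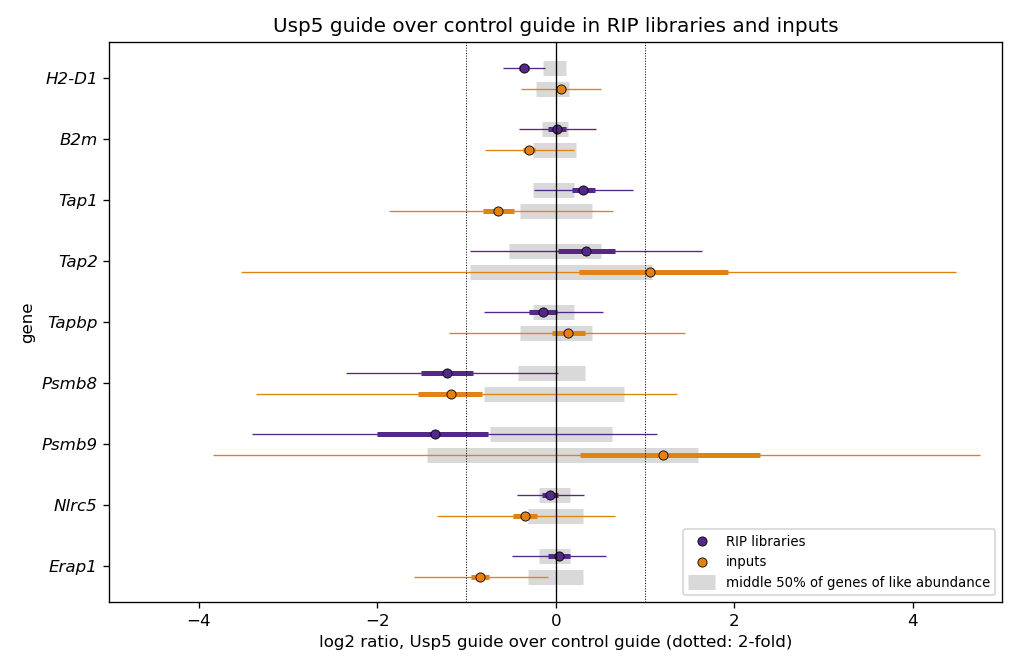
Log2 ratio of Usp5 guide over control guide for the 9 genes compared, in the RIP libraries (upper point of each pair) and in the inputs (lower point); thick lines are 95% counting intervals, thin lines widened intervals, and grey bars the quartiles of genes of like abundance. Psmb8 lies left of -1 in both pairs, Psmb9 lies on opposite sides of 0, and Erap1 lies left of 0 in the inputs and near 0 in the RIP libraries.

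**Figure D4:**
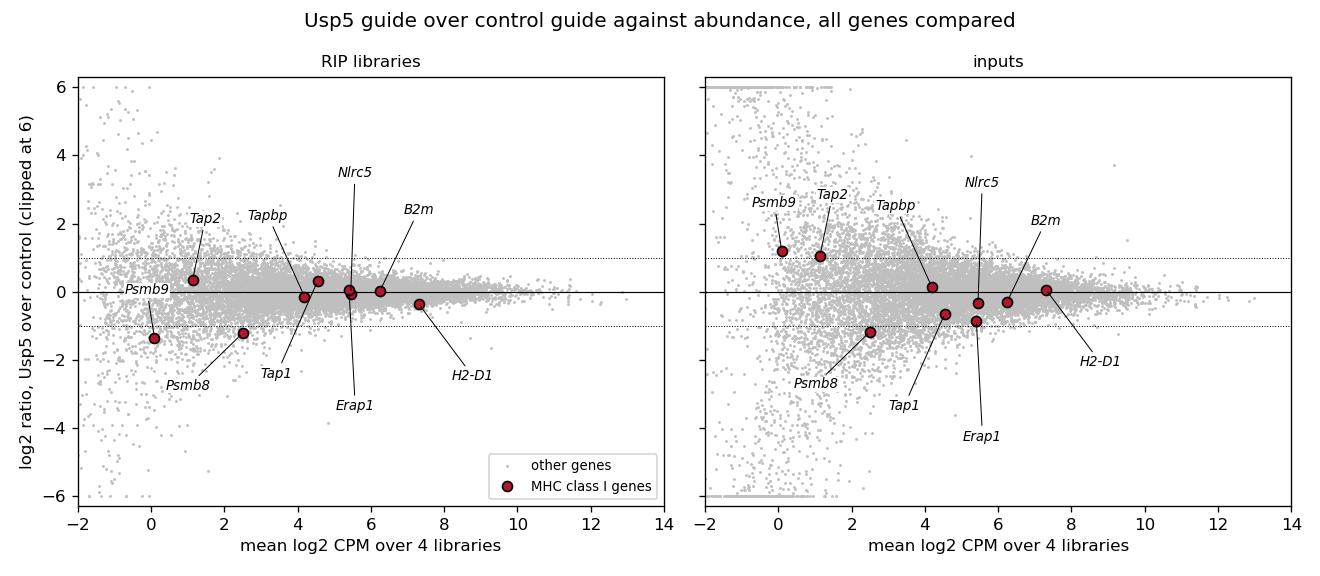
Log2 ratio of Usp5 guide over control guide (vertical axis, clipped at 6) against mean log2 CPM (horizontal axis) for the genes compared (grey; the horizontal axis is cut at both ends) and the 9 members (red), in the RIP libraries (left) and the inputs (right). The cloud widens toward low abundance, more so in the inputs, and Psmb9, Tap2 and Psmb8 lie in its wide part.

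Last, RIP over input was compared between the lines as a difference of log2 ratios, Usp5 minus control, which uses the same 4 libraries again. Psmb9 was the 1 member past the size rule, with an enrichment 5.90-fold lower in Usp5 guide cells (-2.56, counting interval -3.64 to -1.48), and 0 members were higher. The rule called 13.8% of all genes lower and 13.3% higher (27.1% together), and 70.0% of genes in the abundance class of Psmb9. Its widened interval ran from -6.45 to 3.27, and the control RIP, without which Psmb9 would not have been compared, is 1 of the libraries in this difference.

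Tap1 and Erap1 came next, with differences of 0.95 (0.74 to 1.17, widened -0.44 to 2.30) and 0.89 (0.73 to 1.04, widened -0.04 to 1.79). In both, the inputs differed more than the RIP libraries: the Usp5 over control ratio was -0.64 in inputs and 0.31 in RIP libraries for Tap1, and -0.85 and 0.04 for Erap1. For H2-D1 the difference was -0.42 (-0.50 to -0.34, widened -0.92 to 0.09), and it came mostly from the RIP libraries. B2m differed by 0.31 (0.19 to 0.43, widened -0.35 to 0.97) and Nlrc5 by 0.28 (0.12 to 0.44, widened -0.79 to 1.34). Tapbp, Tap2 and Psmb8 differed by -0.29, -0.71 and -0.04. With widened intervals 0 of the 9 members were higher and 0 lower, beside 0.983% and 0.867% of all genes (1.85% together), and no interval of the 9 excluded 0. The median difference of the 9 members was -0.04, against -0.01 over all genes.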

How the data were processed

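The authors deposited raw read counts per Ensembl gene ID as a single table of 4 libraries. The submitters' processing notes name HISAT2 2.1.0, featureCounts 1.6.3 and mm10; for strand, duplicates, reads with several matches and the annotation release, the settings were not given in the sources used here. Columns were matched to libraries by the short names in the labels. The members' names came with the list of IDs, and RefSeq (GRCm38.p6) gave positions and promoters by symbol. It paired 0 of its 49997 genes with Ensembl IDs, so 9 further gene lists (93 symbols: other antigen presentation genes, regulators, cell type markers, Usp5 and Ythdf1) were not analysed here. All 10 members are named.

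Counts were scaled with TMM (edgeR 4.0.16, R 4.3.3; factors 1.06, 1.05, 0.969 and 0.926 for Usp5 RIP, control RIP, Usp5 input and control input). Ratios had 0.5 counts added, with Clopper-Pearson intervals on the split of reads. For the difference of ratios and for widened intervals, the variance was the sum of reciprocal counts. In widened intervals 0.5 was added after division by the scatter, 57.7 for inputs and 18.4 for RIP libraries. At low counts this pulls widened ratios of RIP over input down and not toward 0. For Psmb9 in Usp5 guide cells the ratio moved from -0.13 to -0.67. RIP against input was tested with edgeR's quasi-likelihood test with the line as a block, since each line gave both fractions, and Benjamini-Hochberg adjustment; the SE is the log2 ratio over the root of F. Usp5 against control was not tested, since each line gave 1 lysate. Code was tested on simulated data. Alternatives were other scaling, filters, added counts and intervals, and DESeq2 1.42.0. The members, lists and settings were chosen with earlier results of these data known, and promoter motifs after the sequences were seen.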

Additional observations from a re-analysis of the deposited data

Results flagged for a closer look

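Log2 RIP over input had opposite signs in the 2 lines for 2 of 9 members, beside 27.8% of all genes, and the difference was not tested. H2-D1 had -0.11 in Usp5 guide cells (widened -0.47 to 0.25) and 0.31 in control guide cells (widened -0.06 to 0.66). With library totals its value in Usp5 guide cells was 0.02, so the signs were no longer opposite. Psmb9 had -0.13 in Usp5 guide cells (counting interval -0.89 to 0.62) and 2.43 in control guide cells. The last rests on 13 input reads, with the gene compared only through its control RIP level.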

How the results depend on the processing

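The edgeR calls of B2m and Nlrc5 kept their direction and stayed under an adjusted p of 0.05 with library totals, with DESeq2's Wald test, without the line term and with a filter of 10 reads in all; adjusted p ranged from 1.7e-07 to 0.00592 for B2m and from 0.0083 to 0.0215 for Nlrc5. Erap1 stayed above it (0.0553 to 0.124). Over all genes, library totals gave 969 lower and 1686 higher, against 1461 and 1321 with TMM. Library totals moved the median log2 RIP over input of all genes to 0.15 in Usp5 guide cells and 0.21 in control guide cells; H2-D1 then had 0.02 in Usp5 guide cells, still below that median, and Nlrc5 passed 2-fold in control guide cells (1.08). Widened intervals left 1 member higher in the RIP of Usp5 guide cells and 0 in control guide cells, 0 higher and 0 lower between the inputs, 0 lower between the RIP libraries and 0 lower in the difference of enrichments. A mean of at least 5 CPM, which drops Tap2 and Psmb9 and keeps 9923 genes, left 2 members higher in the RIP of Usp5 guide cells (21.1% of all genes called in either direction), 0 higher in that of control guide cells (26.1%), 0 higher between the inputs (13.0%), 1 lower between the RIP libraries (2.26%) and 0 lower in the difference of enrichments (15.4%). No count of members changed with upper-quartile factors, with size factors from DESeq2, with 2 counts added, with a filter of 10 reads in all or with 2-fold and no interval. No replicate could be left out, since each group has 1 library. Psmb9 and Tap2 rest on as few as 13 and 19 reads in a library.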
